A study of Homo sapiens with 24 samples.

Results

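The genes described here carry signals that dying cells send to their surroundings and handle the purines released with them: HMGB1, ANXA1, S100A8, S100A9, PANX1, P2RX4, P2RX7, P2RY2, ENTPD1 and NT5E. They were taken by gene symbol from the deposited read counts, as 10 of 58381 genes, and 9 of them were among the 20820 genes with enough reads to be tested. ENTPD1 was too low to test. The counts come from human bladder cancer lines named 5637, CLS-439, T24 and TCC-SUP. Some cultures were left untreated and others received 75 µM mitomycin C (MMC), a drug that crosslinks DNA strands, during 1 h, with the RNA collected 15 h later. No genotype, allele or other agent is given in the labels, and all groups share the same culture and library preparation. Each of the 8 groups held 3 libraries, numbered 1, 3 and 4 and called biological replicates in the series' design text.

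Cells that die under some drugs and stresses can alert immune cells, a process called immunogenic cell death. Background knowledge of it names HMGB1, a chromatin protein that leaves dying cells, and ANXA1, which guides phagocytes to them, as danger signals. ATP leaves through channels such as the one formed by PANX1 and is read by P2X and P2Y receptors on neighbouring cells. The surface enzymes CD39 (ENTPD1) and CD73 (NT5E) then cut ATP stepwise to adenosine, which dampens immune cells.

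The libraries held between 13791428 and 28821665 counted reads. Levels are given as CPM, the counts scaled by TMM to a library of 1000000 reads, with the SD over 3 libraries. Fold changes are on the log2 scale with their standard error (SE), and a gene counts as called where edgeR's quasi-likelihood test gave a p under 0.05 after Benjamini-Hochberg adjustment over all 20820 genes tested. Epithelial and urothelial markers were present in every group, with 9 to 13 of 17 at 1 CPM or more. GATA3, PPARG and FOXA1 were among them in each group. The urothelial marker UPK1B reached 1 CPM in untreated 5637 and in CLS-439 with either treatment, and UPK3A had 0 reads in untreated T24, 5637 and TCC-SUP. TCC-SUP also carried 6 of 10 fibroblast and endothelial markers at 1 CPM or more, with a summed level of 7611 to 10780 CPM untreated and 3887 to 5757 CPM treated, and CLS-439 carried 3 (COL1A1, PDGFRB and VWF), with 1530 to 1870 CPM untreated and 986.5 to 1228 CPM treated. The CLS-439 libraries stood apart from the rest. Mitochondrial genes took 0.0238 to 0.0283% of their reads, against 3.21 to 7.40% in the other 18 libraries, and processed pseudogenes took 2.97 to 3.25%, against 0.179 to 0.272%. Whether CLS-439 RNA matches the human reference as that of the other lines does was not tested, and every level and every count of calls given for this line carries that doubt. Treated replicate 1 also lay away from its partners in T24, where its root mean square log2 difference was 0.600 and 0.458 from replicates 3 and 4, which differed by 0.262 from each other. In treated 5637 it was 0.487 and 0.399 from the others, against 0.273 between them, in treated CLS-439 0.320 and 0.301 against 0.182, and in treated TCC-SUP 0.402 and 0.329 against 0.325.

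Untreated lines were compared in pairs. The members called were 7 of 9 between T24 and 5637, where 46.6% of all genes tested were called, 7 between T24 and TCC-SUP (all genes 51.3%) and 7 between T24 and CLS-439 (72.3%). Comparisons of 5637 with TCC-SUP (56.6%), of 5637 with CLS-439 (73.7%) and of TCC-SUP with CLS-439 (77%) each called 8. The counts include P2RX7 between T24 and CLS-439 and S100A9 between TCC-SUP and either T24 or CLS-439, all below 1 CPM in both groups. They also include S100A8 and S100A9 in each pair with 5637 and P2RX7 in each pair with TCC-SUP. These genes passed the read filter through that line alone, which favours such calls. The shares over all genes are themselves high. These comparisons share groups, so their counts are not independent.

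MMC moved a smaller set. In T24, 4 of 9 members changed against 28.6% of all genes tested, with PANX1 and P2RX4 higher (all genes 15.2%) and HMGB1 and ANXA1 lower (13.4%). In 5637, 4 of 9 changed against 29.4%, with P2RX4 higher (15.9%) and HMGB1, ANXA1 and S100A8 lower (13.6%). S100A8 passed the read filter mainly through untreated 5637, where it was highest, which favours its lower call. In TCC-SUP edgeR called 0 members against 20.7% of all genes, with 1 at an unadjusted p under 0.05 and 1 called by DESeq2 (PANX1 in both). In CLS-439 it called 0 against 0.62% of all genes, with 0 at an unadjusted p under 0.05 and 0 by DESeq2. With the replicate number as a term in the fit, 7 members were called in 5637, P2RY2, NT5E and S100A9 in addition. Without replicate 1 of every group, T24 had 3 called members, 5637 had 7, TCC-SUP had 1 and CLS-439 had 0. Without replicate 3 of every group T24 had 2 and 5637 had 1 (P2RX4), and without replicate 4 each had 1 (HMGB1 in T24, P2RX4 in 5637). Among single libraries of 5637, the count was 1 without untreated or treated replicate 3, 2 without untreated replicate 1 or treated replicate 4, and 6 without treated replicate 1. TCC-SUP had 1 without treated replicate 1 (PANX1) or 4 (NT5E). The share of all genes called under each of these other settings is not reported here. Calls on the related lists below moved with the settings too, so the swings are not read as particular to the members. The 2 treatments' libraries did not overlap for 5 of 9 members in T24 (34.6% of all genes tested). They did not for 6 in 5637 (40.5%), for 3 members of TCC-SUP (37.7%) and for 1 of CLS-439 (21.9%), shares that include genes at trace level. The 6 in 5637 include S100A8, with the limit given above. Since RNA was taken from whole cultures, fewer cells making a transcript and less of it per cell cannot be told apart.

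**Figure D1:**
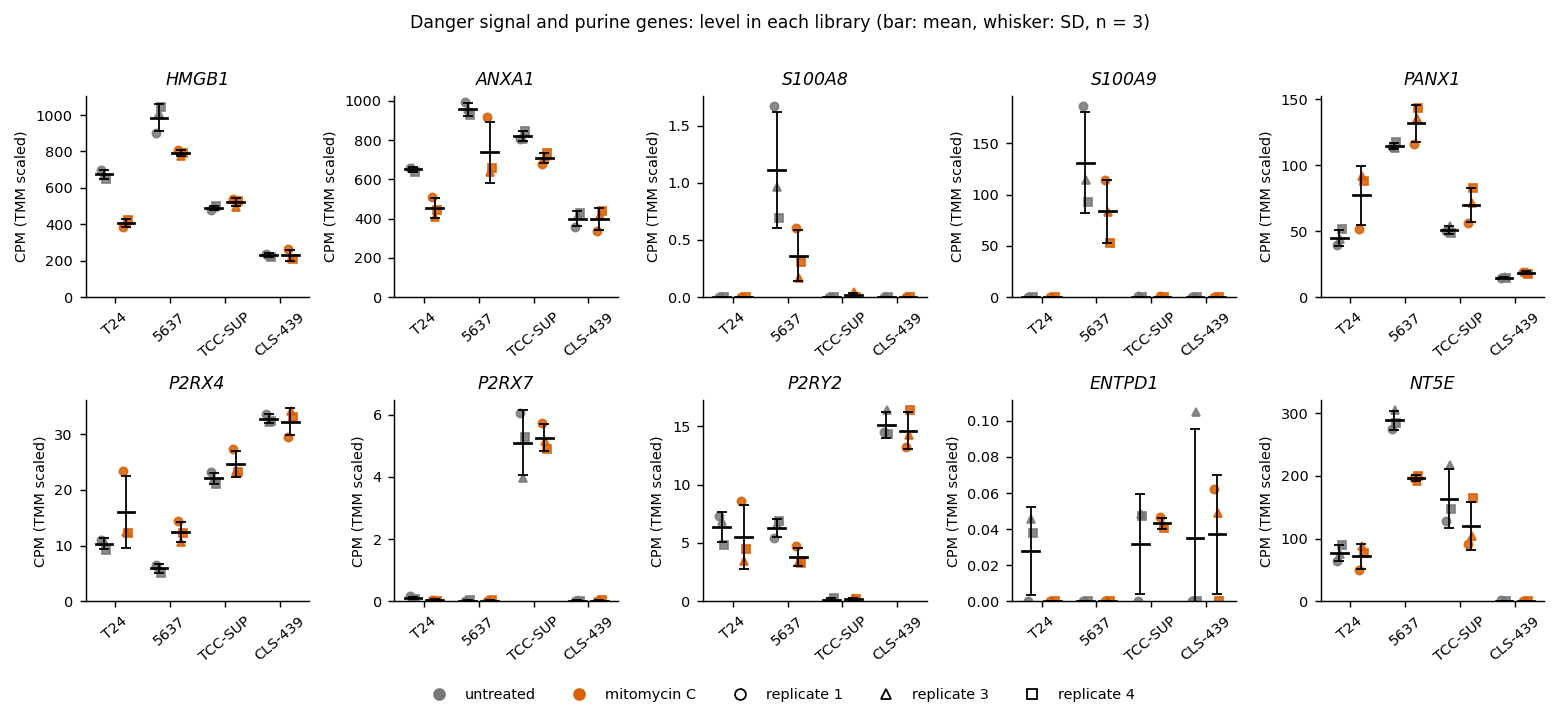
Level of each gene in CPM (linear axis from 0, its own scale in each panel) in the 24 libraries, by line and treatment, with the group mean as a bar and the SD over 3 libraries as a whisker. HMGB1 drops in treated T24 with no overlap, P2RX7 is above 1 CPM in TCC-SUP alone and S100A9 in 5637 alone, and the ENTPD1 axis ends near 0.1 CPM.

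HMGB1 (ENSG00000189403, chromosome 13, 30456704 to 30617597, minus strand, GRCh38) encodes the chromatin protein that acts as a danger signal once outside the cell. Untreated T24 libraries held 700, 673 and 649 CPM (replicates 1, 3 and 4), and treated ones 383, 411 and 424 CPM. The treated values all lay below the lowest untreated one, and HMGB1 fell by 0.73 (SE 0.10, edgeR adjusted p = 8.21e-06), called in each of the 6 fits with 1 T24 library left out. In 5637 the untreated libraries held 900.2, 1011 and 1046 CPM and the treated ones 805, 774 and 790 CPM. Here too the groups did not overlap, with a decrease of -0.32 (SE 0.10, edgeR adjusted p = 0.0175). That call was lost without untreated replicate 3 (adjusted p = 0.0580), untreated replicate 4 (0.0778) or treated replicate 3 (0.0610). It was also lost in a fit of the 5637 libraries alone (-0.30, adjusted p = 0.0632) and with no filter on low counts (-0.34, 0.0918).

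TCC-SUP held 479, 495 and 499 CPM of HMGB1 untreated and 536, 495 and 530 CPM treated, a difference of 0.08 (edgeR adjusted p = 0.613). CLS-439 held 239, 229 and 217 CPM untreated and 263, 216 and 210 CPM treated, a difference of 0.01. Both lines had overlapping groups. The order of untreated levels was 5637 (986 ± 76.0 CPM), T24 (674 ± 25.5), TCC-SUP (491 ± 10.8) and CLS-439 (228 ± 10.9), and each neighbouring pair was called, with differences of -0.55 for T24 minus 5637, 0.46 for T24 minus TCC-SUP and 1.10 for TCC-SUP minus CLS-439. The place of CLS-439 is uncertain, because 48 annotated pseudogene copies of HMGB1 took 17.2 to 21.4% of the reads of the gene and its copies there and 3.67 to 10.5% in the other lines. How the counting shared reads between copies is not stated in the sources at hand.

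ANXA1 (ENSG00000135046, chromosome 9, 73151757 to 73170393, plus strand) encodes annexin A1, a membrane-binding protein sensed by formyl peptide receptors. T24 went from 659, 659 and 636 CPM to 510, 411 and 446 CPM. All treated libraries were below all untreated ones, and ANXA1 fell by 0.52 (SE 0.13, edgeR adjusted p = 0.00369), a call kept in all 6 fits without 1 T24 library. In 5637 it went from 993, 957 and 926 CPM to 918, 638 and 657 CPM. Treated replicate 1 sat just under the lowest untreated library while the other treated ones were far below, and the decrease was -0.38 (SE 0.13, edgeR adjusted p = 0.0281).

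The 5637 call for ANXA1 rested on single libraries. It was lost without untreated replicate 1 (edgeR adjusted p = 0.0815) or 3 (0.0642) and without treated replicate 3 (0.165) or 4 (0.139), whereas without treated replicate 1 the decrease was -0.60 (0.000396). A fit of the 5637 libraries alone did not call it (-0.36, adjusted p = 0.0947). TCC-SUP went from 806, 808 and 848 CPM to 680, 716 and 732 CPM, groups that did not overlap but with a difference of -0.21 that was not called (edgeR adjusted p = 0.269). CLS-439 held 356, 417 and 426 CPM untreated and 336, 421 and 439 CPM treated, with overlap and a difference of -0.0045 (SE 0.13). Untreated levels ran from 5637 (959 ± 33.3 CPM) and TCC-SUP (821 ± 23.8), which were not called apart (0.22, adjusted p = 0.144), through T24 (651 ± 13.5) to CLS-439 (399.8 ± 37.9). The step from TCC-SUP to T24 (-0.33, adjusted p = 0.0318) was lost in 5 of the 6 fits with 1 of these libraries left out, all but that without untreated TCC-SUP replicate 1 (adjusted p from 0.0479 to 0.0895).

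S100A8 and S100A9 encode the subunits of calprotectin, a calcium-binding complex that neutrophils and stressed epithelia release and that Toll-like receptor 4 senses. The genes lie near each other on chromosome 1, S100A8 (ENSG00000143546) at 153390032 to 153391188 on the minus strand and S100A9 (ENSG00000163220) at 153357854 to 153361027 on the plus strand. Both were read in 5637 and hardly elsewhere, and so their start regions are shown, each from 250 bases before to 50 after the start site, 5′ to 3′ (RefSeq, GRCh38.p14). Capitals mark matches, on either strand, to an NF-kB pattern of 3 G, any 5 bases and 2 C, GGGCGG (the GC box) or TATAAA (the TATA box); the motifs TGANTCA (AP-1), TGACGTCA (CRE) and TTGCNNAA (C/EBP) were searched too and had no match in either.
S100A8 promoter, chr1:153390927-153391226, minus strand: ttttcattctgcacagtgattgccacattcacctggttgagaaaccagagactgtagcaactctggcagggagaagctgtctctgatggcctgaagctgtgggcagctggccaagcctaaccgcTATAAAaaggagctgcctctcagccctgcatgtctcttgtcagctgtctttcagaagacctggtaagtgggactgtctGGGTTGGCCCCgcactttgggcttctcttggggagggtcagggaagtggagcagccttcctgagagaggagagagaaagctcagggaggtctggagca
S100A9 promoter, chr1:153357604-153357903, plus strand: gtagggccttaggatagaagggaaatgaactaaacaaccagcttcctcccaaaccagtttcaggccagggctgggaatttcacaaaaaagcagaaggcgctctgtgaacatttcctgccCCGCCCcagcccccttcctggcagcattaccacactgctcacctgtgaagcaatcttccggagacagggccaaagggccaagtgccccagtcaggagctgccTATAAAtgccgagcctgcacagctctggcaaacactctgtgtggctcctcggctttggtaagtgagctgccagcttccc
Each window held 1 TATAAA match, at -126 from the RefSeq start in S100A8 and at -29 in S100A9. This motif was found in 11.5% of the 35116 RefSeq promoter windows of this length. The RefSeq start of S100A8 lies downstream of the GENCODE one, so most of its window, with all its marked matches, lies inside the gene span given above. The S100A8 window held 2 overlapping matches of the NF-kB pattern, which 58.7% of windows contain, and the S100A9 window 1 GC box (45% of windows). A match of letters is a description and not a measured binding site.

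In 5637, S100A9 went from 187, 115 and 92.4 CPM untreated to 114, 83.4 and 53.2 CPM treated. Replicate 1 was highest and replicate 4 lowest in both groups, which overlapped. The difference of -0.65 (SE 0.29) was not called without the replicate number as a term (edgeR adjusted p = 0.0996), and was called with it (-0.65, 0.00875), where same-numbered libraries deviated together. S100A8 was far lower, with 33, 20 and 15 reads in the untreated libraries (1.68, 0.966 and 0.690 CPM) and 13, 4 and 6 reads in the treated ones (0.608, 0.171 and 0.303 CPM). The groups did not overlap and S100A8 fell by 1.61 (SE 0.51, edgeR adjusted p = 0.0284), but DESeq2 did not call it (adjusted p = 0.270). S100A8 passed the read filter through the 5637 libraries, above all the untreated ones, where it was highest. That favours a lower call, so neither the call nor the lack of overlap is read as support for a decrease. The call was also lost without untreated replicate 1 (-1.20, adjusted p = 0.152) or 3 (-1.71, 0.0538) and without treated replicate 3 (-1.26, 0.129) or 4 (-1.51, 0.0962).

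Outside 5637, S100A8 had 1 read in treated TCC-SUP and 0 in each other group, where 3 reads, the limit that a count of 0 allows, come to 0.0404 to 0.0509 CPM over a group (this limit covers counting error only). S100A9 had 19 reads in untreated and 24 in treated TCC-SUP, and 1 or 2 reads per group in T24 and CLS-439. No fold is given there. Markers of leukocytes, the cells best known for these genes, were low in 5637. The summed level over 14 markers was 0.724 to 1.12 CPM untreated and 1.12 to 4.57 CPM treated. Of the neutrophil genes, FCGR3B and MPO had 0 reads in both groups, while ELANE had 0 untreated and was read in the treated group. CD14 and FCER1G reached 1 CPM in treated 5637 and were called higher there. Which cells the S100 reads came from was not tested.

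PANX1 (ENSG00000110218, chromosome 11, 94128928 to 94181972, plus strand) encodes pannexin 1, the channel that lets ATP out of dying cells after caspases cut its tail. It is the member that was higher in T24 with no call in any other line, and its promoter window is shown with the same motifs in capitals, C/EBP included.
PANX1 promoter, chr11:94128591-94128890, plus strand: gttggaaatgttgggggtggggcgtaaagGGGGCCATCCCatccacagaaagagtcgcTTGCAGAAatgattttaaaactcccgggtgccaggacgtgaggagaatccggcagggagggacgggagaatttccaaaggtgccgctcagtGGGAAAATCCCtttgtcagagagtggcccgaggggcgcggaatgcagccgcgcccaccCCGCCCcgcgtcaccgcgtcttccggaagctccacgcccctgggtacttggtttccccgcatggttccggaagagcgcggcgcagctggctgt
It held 4 matches of the NF-kB pattern in 2 overlapping pairs, 1 of the C/EBP pattern TTGCNNAA (10.5% of windows) and 1 GC box, and none of AP-1 (7.71%), CRE (1.85%) or TATA. The RefSeq start that sets this window lies upstream of the GENCODE start given above.

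T24 went from 39.3, 44.3 and 51.4 CPM of PANX1 untreated to 51.6, 92.1 and 88.1 CPM treated. Treated replicate 1 lay barely above the highest untreated library, and the other treated ones were far above it. PANX1 rose by 0.78 (SE 0.17, edgeR adjusted p = 0.00108), between 0.62 and 1.01 in the fits with 1 library left out, which all called it. A fit of the T24 libraries alone gave 0.80 and did not call it (adjusted p = 0.0610). TCC-SUP went from 50.3, 54.2 and 48.6 CPM to 56.4, 71.2 and 82.5 CPM. Again the groups did not overlap with replicate 1 the lowest treated library, and the difference of 0.46 (SE 0.17) had an edgeR adjusted p of 0.0543. It was called without that library (0.59, adjusted p = 0.0167) and in DESeq2 (0.45, 0.0487).

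5637 held the most PANX1, with 113.6, 113.3 and 117 CPM untreated and 116, 135 and 144 CPM treated, which overlapped (0.20, edgeR adjusted p = 0.412). CLS-439 held the least, with 14.4, 14.9 and 14.8 CPM untreated and 19.0, 19.3 and 17.4 CPM treated. These groups did not overlap, and the difference of 0.34 (SE 0.17) was not called (edgeR adjusted p = 0.698). In untreated cells TCC-SUP (51.0 ± 2.83 CPM) and T24 (45.0 ± 6.08 CPM) were not called apart (-0.18, adjusted p = 0.394), while 5637 was above and CLS-439 below both.

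P2RX4 (ENSG00000135124, chromosome 12, 121209857 to 121234106, plus strand) encodes an ATP-gated cation channel found on lysosomes and the cell surface. It rose in both T24 and 5637, and its promoter window is printed for that reason.
P2RX4 promoter, chr12:121209879-121210178, plus strand: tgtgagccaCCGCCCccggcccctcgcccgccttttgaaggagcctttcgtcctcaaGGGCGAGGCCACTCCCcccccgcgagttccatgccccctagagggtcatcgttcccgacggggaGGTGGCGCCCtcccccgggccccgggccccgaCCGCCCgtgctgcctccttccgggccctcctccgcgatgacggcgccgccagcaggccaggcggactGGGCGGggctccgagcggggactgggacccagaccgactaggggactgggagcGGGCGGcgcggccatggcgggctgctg
The window held 4 GC boxes and 3 matches of the NF-kB pattern, with none of AP-1, CRE, C/EBP or TATA. It is set by the RefSeq start, which lies downstream of the GENCODE one, and so lies wholly inside the gene span given above.

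5637 went from 6.51, 6.18 and 5.06 CPM of P2RX4 untreated to 14.4, 10.7 and 12.2 CPM treated. Every treated library was above every untreated one, and P2RX4 rose by 1.07 (SE 0.20, edgeR adjusted p = 0.000262), from 0.92 to 1.17 with 1 library left out and called each time. T24 went from 11.004, 10.7 and 9.21 CPM to 23.4, 12.5 and 12.2 CPM. Treated replicate 1 was far above the other treated libraries, which were themselves above all untreated ones. The rise of 0.63 (SE 0.19, edgeR adjusted p = 0.0163) was lost without treated replicate 1 (0.27, adjusted p = 0.232) or without untreated replicate 4 (0.54, 0.0773).

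TCC-SUP held 23.1, 22.0 and 21.1 CPM of P2RX4 untreated and 27.3, 23.5 and 23.2 CPM treated, just without overlap and not called (0.16, edgeR adjusted p = 0.604). CLS-439 held 33.7, 32.2 and 32.3 CPM untreated and 29.6, 34.1 and 33.0 CPM treated, with overlap (-0.02, adjusted p = 1). Untreated levels ran in the reverse of the HMGB1 order, from CLS-439 (32.8 ± 0.816 CPM) through TCC-SUP (22.0 ± 1.04) and T24 (10.3 ± 0.970) to 5637 (5.91 ± 0.761), and each neighbouring pair was called.

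P2RX7 (ENSG00000089041, chromosome 12, 121132819 to 121188032, plus strand) encodes the low-affinity ATP receptor that opens under sustained ATP and sets off inflammasome signalling in immune cells. It was read in TCC-SUP alone above trace level. Untreated libraries held 6.07, 3.98 and 5.28 CPM and treated ones 5.75, 5.15 and 4.90 CPM, which overlapped, with a difference of 0.04 (SE 0.27, edgeR adjusted p = 0.975). In the other lines whole groups held 8 and 2 reads (T24) or 1 read each (5637 and CLS-439, both treatments), and no fold is given.

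P2RY2 (ENSG00000175591, chromosome 11, 73218298 to 73236352, plus strand) encodes a G protein-coupled receptor for ATP and UTP that draws phagocytes toward dying cells. In 5637 it went from 5.39, 6.62 and 6.85 CPM to 4.73, 3.41 and 3.29 CPM. The groups did not overlap, and the difference of -0.72 (SE 0.29) missed the threshold (edgeR adjusted p = 0.0627). It passed with the replicate number as a term (-0.73, adjusted p = 0.0317), in DESeq2 (-0.71, 0.0425) and without treated replicate 1 (-0.94, 0.0228).

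T24 held 7.32, 6.85 and 4.87 CPM of P2RY2 untreated and 8.61, 3.41 and 4.49 CPM treated. Treated replicate 1 was the highest of all 6 and treated replicate 3 the lowest, and the difference was -0.21 (SE 0.28, edgeR adjusted p = 0.645). CLS-439 held 14.5, 16.4 and 14.4 CPM untreated and 13.2, 14.3 and 16.4 CPM treated, with overlap (-0.04, adjusted p = 1). TCC-SUP, where P2RX7 was read, had 9 reads of P2RY2 untreated and 11 treated. Untreated T24 (6.35 ± 1.30 CPM) and 5637 (6.28 ± 0.785) were not called apart (0.01, adjusted p = 1).

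ENTPD1 (ENSG00000138185, chromosome 10, 95711779 to 95869695, plus strand) encodes CD39, which cuts ATP and ADP to AMP. It had 11 reads over all 24 libraries, at most 3 in any group, and 0 in treated T24 and in both 5637 groups. The limit that 3 reads set for those groups is 0.0496 CPM in treated T24 and 0.0483 and 0.0464 CPM in untreated and treated 5637. The overlapping antisense gene ENTPD1-AS1 held 4418 reads. No source used here gives the strand setting of the counting, and how reads were divided between these genes is uncertain.

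NT5E (ENSG00000135318, chromosome 6, 85449584 to 85495791, plus strand) encodes CD73, which cuts AMP to adenosine. In 5637 it went from 275, 305 and 284 CPM to 197, 192 and 200.4 CPM. All treated libraries lay well below all untreated ones, and yet the difference of -0.55 (SE 0.23) was not called (edgeR adjusted p = 0.0686), with 1 spread per gene shared by all 8 groups. With the replicate number as a term it was called (-0.55, adjusted p = 0.0305), and a fit of the 5637 libraries alone gave -0.53 (0.00446).

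In TCC-SUP NT5E varied among replicates, from 127, 217 and 147 CPM untreated to 91.6, 104 and 164 CPM treated. The groups overlapped through treated replicate 4, the difference was -0.45 (SE 0.23, edgeR adjusted p = 0.174), and it was called without that library (-0.74, 0.0353). T24 held 64.6, 75.9 and 90.4 CPM untreated and 49.5, 87.6 and 77.7 CPM treated, with overlap (-0.10, adjusted p = 0.820). CLS-439 held about 1 CPM, with 67 reads untreated and 42 treated and a difference of -0.59 (SE 0.41, adjusted p = 0.865). Untreated 5637 (288 ± 15.5 CPM), TCC-SUP (164 ± 46.9), T24 (77.0 ± 12.96) and CLS-439 (1.08 ± 0.117) were each called apart from their neighbours.

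**Figure D2:**
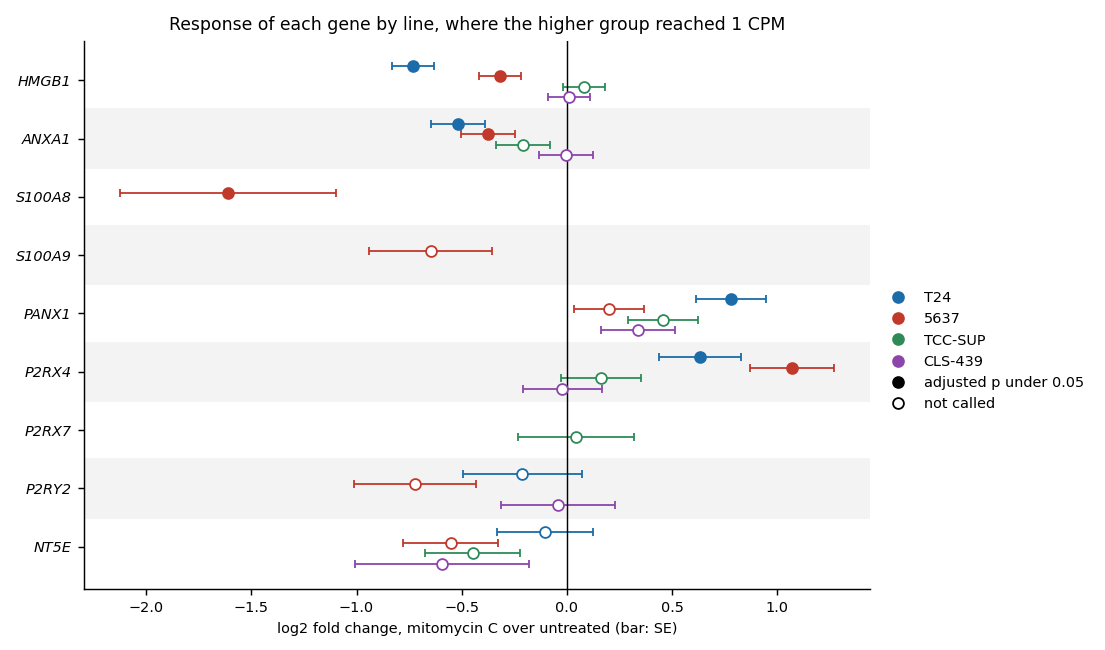
Log2 fold change of treated over untreated for each gene and line where the higher group reached 1 CPM, with the SE as bars, filled where the adjusted p was under 0.05. HMGB1 and ANXA1 lie left of 0 and P2RX4 right of 0 in T24 and 5637, PANX1 lies right of 0 in all 4 lines and is called in T24, and no point is filled for TCC-SUP or CLS-439.

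Levels were also set per kb of merged exons, as a rough scale across genes. The merged length takes in every annotated exon, from 577 bases for S100A9 and 1006 for S100A8 to 8159 for P2RX4, and the order of genes depends on it. In CPM, P2RX4 (5.91) stood above S100A8 (1.11) in untreated 5637, the reverse of their order per kb. In untreated 5637, S100A9 stood at 227 ± 85.6 CPM per kb, ANXA1 at 210 ± 7.31, HMGB1 at 128 ± 9.84, NT5E at 63.6 ± 3.43 and PANX1 at 41.5 ± 0.846. On the same scale P2RY2 was at 2.20 ± 0.275, S100A8 at 1.10 ± 0.507 and P2RX4 at 0.725 ± 0.0932. The receptor levels ran differently by line. In untreated CLS-439, P2RY2 reached 5.28 ± 0.399 and P2RX4 4.01 ± 0.100 CPM per kb, close to PANX1 at 5.31 ± 0.0931, while NT5E was at 0.238 ± 0.0259. In untreated TCC-SUP, P2RX4 was at 2.70 ± 0.127 and P2RX7 at 0.921 ± 0.190 CPM per kb.

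Whether the responses differed among the lines was tested directly. An edgeR test for any difference among the 4 responses called 2 of 9 members, against 16% of all genes tested: HMGB1 (adjusted p = 0.00101) and P2RX4 (0.0238). Without the CLS-439 libraries HMGB1 was called (adjusted p = 0.00582) and P2RX4 was not (0.171). Without replicate 1 of every group 4 were called, ANXA1 and PANX1 in addition, and without replicate 3 or replicate 4 of every group 0 were. P2RX4 was also lost without the single libraries untreated 5637 replicate 4 or treated CLS-439 replicate 1, which left 1 call. For HMGB1, the T24 response was lower than that of TCC-SUP by a log2 difference of -0.81 (SE 0.14, adjusted p = 0.00106, with 3.79% of all genes called) and than that of CLS-439 by -0.74 (SE 0.14, 0.00165, with 10.1%). Both were called in all 12 fits with 1 library of the compared groups left out.

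For P2RX4, the 5637 response exceeded that of CLS-439 by 1.09 (SE 0.28, edgeR adjusted p = 0.0127, with 9.02% of all genes called), also in all 12 fits. Against TCC-SUP the P2RX4 difference was 0.91 (adjusted p = 0.0793), and DESeq2 called it (0.93, 0.0269). The other pairs called 0 members in edgeR: T24 with 5637 (3.47% of all genes, 2 members at an unadjusted p under 0.05, 1 called by DESeq2), 5637 with TCC-SUP (2.7%, 2 and 1) and TCC-SUP with CLS-439 (2.65%, 0 and 0). For PANX1 the test among the lines gave an adjusted p of 0.273 and for ANXA1 0.166, so their responses were not shown to differ with all libraries. Without treated T24 replicate 1, PANX1 and P2RX4 were called between T24 and 5637, and HMGB1, ANXA1 and PANX1 between T24 and CLS-439. Without treated 5637 replicate 1, ANXA1 and P2RX4 were called between 5637 and CLS-439, and without treated CLS-439 replicate 1, HMGB1 and ANXA1 between T24 and CLS-439. The P2RX4 responses of T24 and 5637 differed by -0.44 (95% interval -1.03 to 0.15, adjusted p = 0.473), and without the T24 treated replicate 1 by -0.79 (0.0372).

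**Figure D3:**
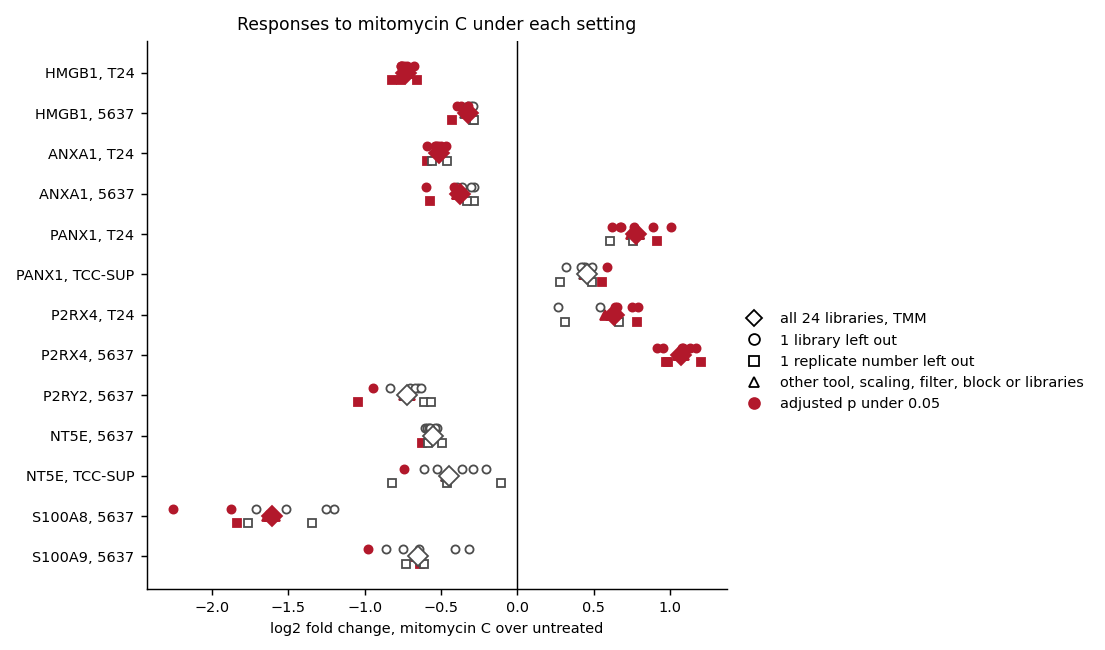
Log2 fold change of treated over untreated for the 13 gene and line pairs called in at least 1 setting, with all 24 libraries (diamond), 1 library left out (circle), 1 replicate number left out (square) or another tool, scaling, filter, block or set of libraries (triangle), filled where the adjusted p was under 0.05. HMGB1 in T24 and P2RX4 in 5637 are filled throughout, and every pair stays on its side of 0.

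Among the genes whose level followed a member most closely over the 24 libraries, measured as the root mean square difference of log2 CPM after centring each gene, HMGB1 was nearest to ZBED4 (0.169), ALG8 (0.213) and CBX1 (0.234), against a median of 0.945 over 12375 genes. ANXA1 was nearest to UBE3C (0.194), TMEM237 (0.196) and ZDHHC3 (0.1995), against a median of 0.784. P2RX4 was nearest to HDAC5 (0.268), EMP2 (0.278) and JUND (0.303), against a median of 1.05. The distance is taken over all 24 libraries, so differences between the lines, CLS-439 included, enter it beside any response to MMC. These are descriptions and carry no test.

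Related genes, from lists chosen with earlier results of these data known, were compared in the same way. Over all genes tested, T24 had 15.2% called higher and 13.4% lower, 5637 had 15.9% and 13.6%, TCC-SUP had 9.57% and 11.1%, and CLS-439 had 0.298% and 0.322%. Adenosine kinase, ADK, which returns adenosine to AMP inside the cell, fell from 88.9 ± 2.12 to 28.5 ± 8.33 CPM in T24 (-1.64), from 82.9 ± 0.756 to 27.8 ± 15.1 in 5637 (-1.58) and from 60.9 ± 5.84 to 16.6 ± 2.21 in TCC-SUP (-1.88, edgeR adjusted p = 1.75e-05, SE 0.24). PNP, which breaks down inosine and guanosine, rose from 107 ± 13.7 to 208 ± 47.4 CPM in T24 (0.96), from 108 ± 4.57 to 202 ± 21.4 in 5637 (0.91) and from 61.9 ± 16.4 to 118 ± 27.0 in TCC-SUP (0.94). The adenosine receptor gene ADORA2B fell from 49.0 ± 1.15 to 20.5 ± 7.37 CPM in 5637 (-1.26, SE 0.25, edgeR adjusted p = 0.000431), and AK4, a mitochondrial adenylate kinase, from 74.4 ± 5.20 to 35.5 ± 5.45 (-1.07). PNP was named after its values were seen. Of 15 adenosine receptor, transport and turnover genes tested, 2 were higher and 3 lower in T24, 2 and 5 in 5637, and 2 and 3 in TCC-SUP. Their median log2 fold change was -0.14, -0.37 and -0.27 in these lines, beside 0.01, 0.00 and -0.01 over all genes at 1 CPM or more. Without replicate 1 of every group, 2 and 6, 3 and 7, and 2 and 6 were called in these lines, against 1 and 1, 1 and 3, and 1 and 1 without replicate 3 and 0 and 1, 0 and 2, and 0 and 1 without replicate 4.

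Genes of ATP release went both ways. Of 15 tested, 4 were higher and 6 lower in T24, 5 and 6 in 5637 and 3 and 4 in TCC-SUP, with medians of -0.34, 0.08 and 0.18. PANX2, a relative of PANX1, rose from 7.73 ± 0.401 to 17.2 ± 2.25 CPM in 5637 (1.15, SE 0.33, edgeR adjusted p = 0.00954). The connexin gene GJB6 fell in 5637 from 37.7 ± 10.1 to 13.1 ± 0.590 CPM (-1.52, SE 0.24, edgeR adjusted p = 0.000162). Without replicate 1 of every group, 5 and 6, 6 and 6, and 4 and 4 genes were called higher and lower in T24, 5637 and TCC-SUP. Leaving out replicate 3 gave 2 and 5, 3 and 3, and 0 and 1, and leaving out replicate 4 gave 2 and 1, 2 and 2, and 0 and 0.

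Of the 6 other P2X and P2Y receptors with enough reads, 2 were higher in T24, 2 in 5637 and 1 in TCC-SUP, and none was lower, though without replicate 1 of every group 1 was lower in 5637 and 1 in TCC-SUP. Without replicate 3 the higher calls were 1, 1 and 0 in these lines, and without replicate 4 there were 0 in each. Those called, named after their values were seen, were P2RY11 in T24 (3.31 ± 0.336 to 6.32 ± 2.53 CPM, 0.94) and TCC-SUP (2.96 ± 0.371 to 7.17 ± 4.17 CPM, 1.28), P2RY6 in 5637 (0.325 ± 0.116 to 1.10 ± 0.374 CPM) and P2RX6 at trace level in T24 and 5637. The P2RY11 call was lost in T24 in all fits with 1 library left out but that without treated replicate 1 (adjusted p from 0.00305 to 0.198), and in TCC-SUP without treated replicate 3 (0.141). The P2RY6 call was lost without untreated replicate 3 (0.0735) or 4 (0.0651) or treated replicate 1 (0.0616) or 4 (0.0512). Of 13 other ectonucleotidases, 1 was higher and 2 lower in T24, 1 and 0 in 5637 and 2 and 1 in TCC-SUP. Without replicate 3 or 4 of every group 0 were higher in any line, and the lower calls were 2 and 1 in T24 and 0 in 5637 and TCC-SUP. ENPP4, which acts on a dinucleotide form of ATP, fell in T24 from 13.6 ± 1.04 to 6.02 ± 1.90 CPM (-1.17, SE 0.21, edgeR adjusted p = 0.000189), while in 5637 it was higher (0.63, adjusted p = 0.0213), a call lost without untreated replicate 1 (0.103) or 3 (0.102) or treated replicate 4 (0.126). ENTPD5, an endoplasmic reticulum relative of CD39, fell in TCC-SUP (-0.54, adjusted p = 0.0217), and ENTPD4, a Golgi relative, in T24 (-0.38, adjusted p = 0.0161). The first was lost without untreated replicate 3 (0.0610) or 4 (0.0570) or treated replicate 3 (0.103), and the second without treated replicate 1 (0.0796) or 4 (0.0748) or untreated replicate 4 (0.105).

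Of 18 other danger signals and their receptors, 2 were called higher and 7 lower in T24, 2 and 4 in 5637 and 1 and 4 in TCC-SUP, with medians of -0.31, -0.29 and 0.17. These became 2 and 5, 1 and 5, and 1 and 3 without replicate 3 of every group, and 1 and 1, 0 and 4, and 1 and 0 without replicate 4. CALR, the chaperone calreticulin that dying cells expose as an eat-me signal, fell from 1227 ± 37.4 to 756 ± 165 CPM in T24 (-0.70), from 923 ± 86.1 to 418 ± 133 in 5637 (-1.14) and from 1990.3 ± 227 to 1113 ± 252 in TCC-SUP (-0.84). HSP90B1, the chaperone GRP94, fell from 995 ± 96.9 to 282 ± 41.5 CPM in 5637 (-1.82, SE 0.19, edgeR adjusted p = 2.04e-07), and also in T24 (-0.86) and TCC-SUP (-0.78). IL1A, an alarmin cytokine, rose in T24 from 11.5 ± 4.57 to 85.2 ± 37.3 CPM (2.88, SE 0.31, edgeR adjusted p = 4.99e-07). MYD88, the adaptor of Toll-like and interleukin 1 receptors, rose from 106 ± 11.8 to 241 ± 62.0 CPM in TCC-SUP (1.18, SE 0.16, edgeR adjusted p = 2.73e-05), and in T24 (0.74) and 5637 (0.62). CALR was named after its values were seen.

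The S100 and annexin families, apart from the members, had 1 gene higher and 6 lower of 21 in T24, 3 and 7 in 5637 and 2 and 6 in TCC-SUP, with medians of -0.26, -0.29 and -0.30. Without replicate 1 of every group, T24, 5637 and TCC-SUP had 1 and 10, 1 and 10, and 2 and 8, without replicate 3 they had 1 and 1, 1 and 5, and 1 and 1, and without replicate 4 they had 0 and 2, 1 and 4, and 0 and 1. ANXA2, the most abundant annexin here and named after its values were seen, fell from 6187 ± 539 to 3422 ± 293 CPM in T24 (-0.85), from 2932 ± 92.6 to 1497 ± 200.1 in 5637 (-0.97) and from 3054 ± 206 to 1825 ± 149 in TCC-SUP (-0.74). S100A2, an epithelial calcium-binding protein, fell in 5637 from 1469.7 ± 192 to 669.6 ± 201 CPM (-1.13, SE 0.27, edgeR adjusted p = 0.00262). S100A13, which helps export leaderless proteins, rose there from 32.7 ± 3.50 to 71.0 ± 5.11 CPM (1.12, SE 0.17, edgeR adjusted p = 2.27e-05), and S100A3 fell from 12.8 ± 1.19 to 5.35 ± 1.31 CPM (-1.26). In CLS-439 edgeR called 0 of the 88 tested genes on these lists, with 3 at an unadjusted p under 0.05, and DESeq2 called 0 with 5.

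**Figure D4:**
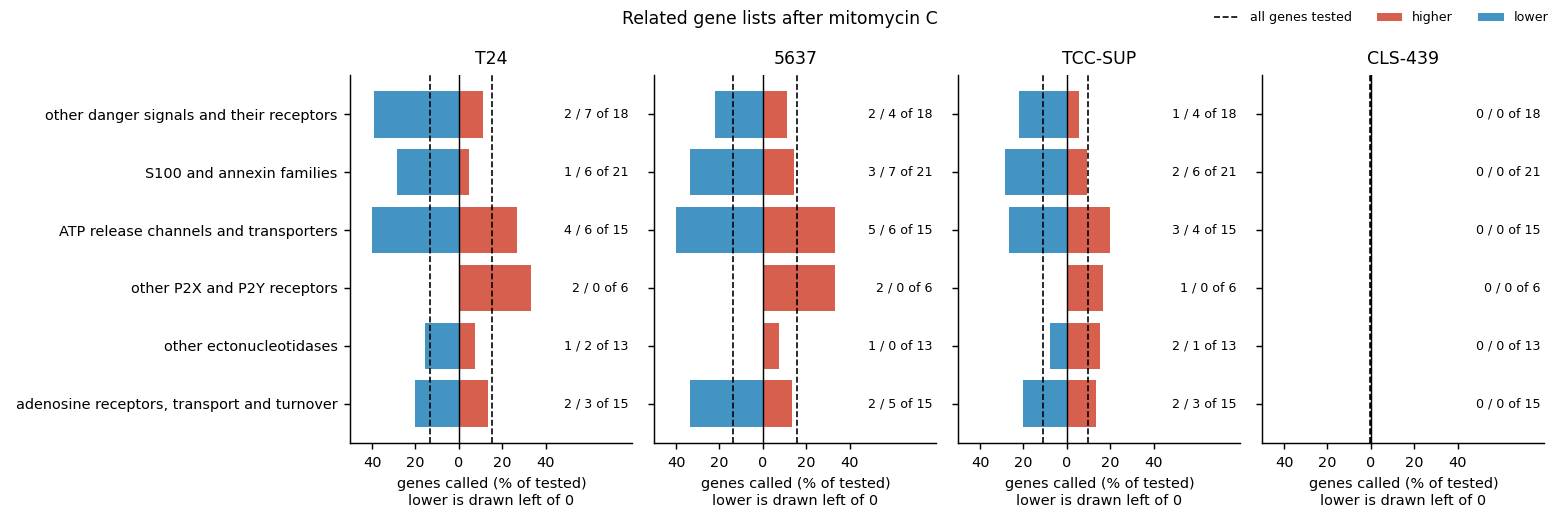
Share of the tested genes of each related list that were called higher (right of 0) or lower (left of 0) after MMC, by line, in percent, with the counts as higher / lower of tested and the share over all genes tested as dashed lines. Lower calls outnumber higher ones in 5 of the 6 lists in T24, and no bar is drawn for CLS-439.

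Some markers of the lines' own type and of other cell types were called after the treatment as well. Of 14 epithelial and urothelial markers tested, 0 were higher and 4 lower in T24, 1 and 6 in 5637 and 0 and 4 in TCC-SUP, with medians of -0.63, -0.17 and -0.46. Over all genes tested the shares were 15.2% and 13.4% in T24, 15.9% and 13.6% in 5637 and 9.57% and 11.1% in TCC-SUP. Without replicate 1 of every group the counts were 1 and 7, 1 and 6, and 0 and 6 in these lines. Leaving out replicate 3 gave 1 and 3, 0 and 4, and 0 and 2. Leaving out replicate 4 gave 0 and 2, 0 and 4, and 0 and 0. KRT19, an epithelial keratin, fell in T24 from 424 ± 42.6 to 123 ± 71.5 CPM (-1.79). In 5637 the urothelial regulators PPARG (-1.60) and TP63 (-1.54) fell while FOXA1 rose (0.76). Of 10 fibroblast and endothelial markers, COL1A1 rose in T24 (0.89) and 5637 (1.22), and COL1A1 (-0.84) and COL1A2 (-1.09) fell in TCC-SUP. Without replicate 4 of every group, 0 of these 10 were called in T24 and in TCC-SUP. Of 5 leukocyte markers tested, CSF1R at trace level was higher in T24, CD14 (1.84) and FCER1G (2.26) were higher in 5637, and in TCC-SUP FCER1G was higher (1.91) and PTPRC (-1.40) and CSF1R at under 1 CPM were lower. PTPRC went from 30.0 ± 1.32 to 11.4 ± 2.22 CPM. The leukocyte marker call in T24 was absent in DESeq2, with the replicate block and without any 1 replicate number. In 5637, 0 leukocyte markers were called without replicate 3 and 1 without replicate 4. In TCC-SUP 0 were higher and 1 lower without replicate 3, and 0 were called without replicate 4. Summed over the 14 leukocyte markers, TCC-SUP held 36.7 to 42.8 CPM untreated and 19.1 to 25.6 CPM treated. The part of these markers in the results above was not tested.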

How the data were processed

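The values used are the raw counts of reads, by Ensembl gene ID and not normalized, which the authors deposited in 1 table for the 24 libraries. Per the submitters' processing notes the tools were STAR 2.5.3a and featureCounts 1.6.2 with genome build GRCh38, and the labels' protocols name a stranded poly(A) library kit. No source used here gives the strand setting, the annotation release or how multi-mapping reads were treated, which makes counts of copies and of antisense genes uncertain. The treatment tag of the treated samples reads MCC and was taken as MMC, the drug the protocol names.

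Gene symbols, coordinates and exon lengths came from GENCODE 29, which holds 58216 of the 58381 gene IDs in the table. Genes passing filterByExpr by group were kept (20820 genes with 99.9% of the reads). Counts were scaled by TMM and fitted in edgeR 4.0.16 (R 4.3.3) with a quasi-likelihood model of 1 mean per group over all libraries, robust, with 16 residual degrees of freedom. MMC was contrasted with no treatment within each line, followed by the differences of these between lines, and pairs of untreated lines, each adjusted over all genes tested. Fold changes are given where the higher group reached 1 CPM. A trial of the test on simulated counts with independent replicates is not reported here and is no support for the calls above. Alternatives were DESeq2 1.42.0, its size factors in edgeR, no filter, a replicate block, fits of fewer lines, and replicates left out.

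The members and the gene lists were chosen with earlier results of these data known. All members were to be named, and from each list up to 3 called genes with the largest change at 10 CPM or more, with others marked where they appear and 1 gene that the rule would name not reported here. The lowest chi-square per gene between replicates of the same group was 2.91, so no library repeated another of its group. Libraries of different groups were not compared in this way. Replicate numbers were checked as pairs by correlating the deviations from the group means of the libraries that share a number. All correlations exceeded 0.1 in CLS-439 (0.459, 0.334 and 0.169) and in 5637 (0.321, 0.166 and 0.475), but some were negative in T24 and TCC-SUP. The model above has no replicate term, and the replicate block is 1 of the alternatives. Promoters came from RefSeq, with an entry for 9 of the 10 members.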

Additional observations from a re-analysis of the deposited data

Results flagged for a closer look

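The response of HMGB1 to MMC differed among the 4 lines by the test of the difference itself (edgeR adjusted p = 0.00101), with a T24 response below that of TCC-SUP by a log2 difference of -0.81 and below that of CLS-439 by -0.74. The response of P2RX4 also differed among the lines (edgeR adjusted p = 0.0238), with the 5637 response above that of CLS-439 by 1.09. Single libraries were not tested as outliers in these groups of 3.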

How the results depend on the processing

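Of 384 values of the 26 member responses under the alternatives, 314 kept their direction and side of the threshold, 31 lost a call, 20 gained one and 19 changed sign, of which 0 belonged to a called response. Members called in T24 were 2 in a fit of that line alone (HMGB1 and ANXA1). In TCC-SUP 1 was called with no filter (NT5E), 1 in DESeq2 and 1 with the replicate block (PANX1 in both). The replicate block called 7 members in 5637, 2 for T24 minus CLS-439 and 1 for 5637 minus TCC-SUP, and it moved no other count of members by over 1.5 times. For 5637 minus TCC-SUP 1 was called with those lines alone and 1 in DESeq2, which also called 1 for T24 minus 5637. The test among the lines called 1 without CLS-439. The cause was not tested for any of these. These counts, and those below, stand without the share of all genes called in the same setting and are not read as particular to the members.

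Leaving out replicates gave 1 to 4 called members in T24, 1 to 7 in 5637, 0 to 1 in TCC-SUP and 0 to 4 in the test among the lines. Differences between lines gave 0 to 2 (T24 minus 5637), 0 to 1 (T24 minus TCC-SUP, and 5637 minus TCC-SUP) and 0 to 3 (T24 minus CLS-439, and 5637 minus CLS-439). Without replicate 3 or 4 of every group, which leaves 2 libraries each, the test among the lines called 0. Values that changed sign when replicates were left out were those of CLS-439 for HMGB1 (-0.10 to 0.067), ANXA1 (-0.082 to 0.11), P2RX4 (-0.083 to 0.052) and P2RY2 (-0.17 to 0.032), of T24 for P2RY2 (-0.67 to 0.075) and NT5E (-0.30 to 0.11), of TCC-SUP for P2RX7 (-0.11 to 0.17), and untreated T24 minus 5637 for P2RY2 (-0.19 to 0.24). None of these was called. ENTPD1 in all lines, P2RX7 outside TCC-SUP, P2RY2 in TCC-SUP and the S100 members outside 5637 held too few reads for a fold.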
